A study of Mus musculus with 8 samples.

Results

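Nonclassical MHC class I, MR1 and CD1 molecules were examined in macrophages of mouse pancreas tumours. The 8 genes were Cd1d1, Mr1, H2-M2, H2-M3, H2-T10, H2-T22, H2-T23 and H2-T24, and their probes were taken as every probe, other than a control, that the array's files name for one of them. This gave 13 probes of 56605, for 8 of 37008 gene names. The data were 8 one-colour arrays, 4 of macrophages labelled MHCII-high and 4 of macrophages labelled MHCII-low, after the surface level of MHC class II. Both groups shared all other labels. They came from female mice of strain FvBn, aged 8 to 10 weeks, that had received tumour implants in the pancreas, and the genotype field read "Not provided". Neither the implanted tumour line nor further sorting gates are named. The series' design text lists wild-type, KPC and FLT3-CRE/LSL-YFP mice as sources of macrophages, without tying the 8 samples to any of them. Each group held the label numbers 20435, 20436, 20439 and 20442 once. Whether each sample was a separate animal is not stated, and p-values therefore reflect the scatter among these samples alone, which could be technical.

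Classical MHC class I molecules show peptides from inside the cell to CD8 T cells and vary greatly between individuals. The nonclassical relatives vary little and serve more specialised lymphocytes. CD1d presents lipids to natural killer T cells, MR1 presents small metabolites of bacterial vitamin synthesis to mucosal-associated invariant T cells, H2-M3 presents formylated peptides, and Qa-1, the product of H2-T23, presents leader peptides of other class I molecules to CD94/NKG2 receptors of natural killer and T cells. H2-T10 and H2-T22 are ligands of a subset of gamma delta T cells. Most of these proteins need the light chain beta 2-microglobulin to reach the cell surface.

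For most of the family, no difference between MHCII-high and MHCII-low cells passed the test. Of the 13 probes, 1 was higher in MHCII-high cells, a probe of H2-M2, and 1 was lower, a probe of Mr1, at an adjusted p under 0.05. Both genes had other probes that did not pass the test. Over all 41181 probes tested, 2.77% were called higher and 2.43% lower, 5.19% in all. The median size of the change was 0.16 on the log2 scale over the 13 probes and 0.28 over all probes tested. The groups did not overlap for 4 of the 13 probes, beside 14.8% of all probes. Each value is a log2 signal after subtraction of the array's own 75th percentile, and a change is the MHCII-high mean minus the MHCII-low mean, tested with limma and adjusted over all probes tested. An unadjusted p under 0.05 was reached by 2 of the 13 probes, beside 20.4% of all probes. All 13 probes passed the filter on dim probes, and 12 were well above background on all 8 arrays. The H2 genes resemble each other in sequence, so every probe is given on its own, and levels are not compared between probes.

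The probes that carry these results are 60 bases long, and the first 30 bases of each H2-M2 and Mr1 probe are shown to tell them apart, 5′ to 3′.
H2-M2 A_55_P2135064: gtggcccattattcccaaagacacaattct
H2-M2 A_51_P191463: tgagcccctcaccctgagatggagtagacc
Mr1 A_52_P212429: ggctcttgatagactcctttatcacagtca
Mr1 A_55_P2805396: caccaccaccactaataacaaacaaaaact
Mr1 A_55_P2730601: tgtttcaggaaatcctgaacactgtagacc
On the files' build, mm9, the H2-M2 probes lie on the minus strand at chr17:37618042-37618101 (A_55_P2135064) and chr17:37618259-37618439 (A_51_P191463). The 60 bases of the latter span 181 bases of genome, and 157 bases separate the probes. The Mr1 probes lie on the minus strand at chr1:156976189-156976248 (A_52_P212429), chr1:156975032-156975091 (A_55_P2805396) and chr1:156983136-156983195 (A_55_P2730601). The first of these stands 1097 bases from the second and 6887 bases from the third. No exon annotation of mm9 was used here, so the part of the gene that each probe reads is not given.

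Each probe was compared with every probe of another gene on the array for the longest run of shared bases. For 12 of the 13 probes that run was 13 to 16 bases. The exception was the H2-T23 probe A_51_P237754, which shared 31 bases with a probe of H2-L and 29 with a probe of H2-K1, both classical class I genes. The shared run is in capitals in each, for H2-T23 the 31 bases.
H2-T23 A_51_P237754: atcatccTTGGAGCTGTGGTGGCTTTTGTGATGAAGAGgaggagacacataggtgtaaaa
H2-L A_55_P2501876: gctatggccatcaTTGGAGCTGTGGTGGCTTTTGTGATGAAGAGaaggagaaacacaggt
H2-K1 A_55_P2049647: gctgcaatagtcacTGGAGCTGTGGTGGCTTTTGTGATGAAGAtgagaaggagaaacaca
These 3 probes lie at chr17:36167338-36167574, chr17:35403191-35403250 and chr17:34133984-34134043 on mm9. The H2-T23 probe also shared shorter runs, among them 22 bases with a probe named for C920025E04Rik and 20 with a probe of Gm11127. Whether it also takes up transcripts of H2-L, H2-K1, C920025E04Rik or Gm11127 was not tested. The comparison covered probes and not transcripts, so uptake of related transcripts by the other 12 probes was not tested. The array was designed on reference mouse sequence, and mismatches in the strain used, which both groups share, were not tested either.

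**Figure D1:**
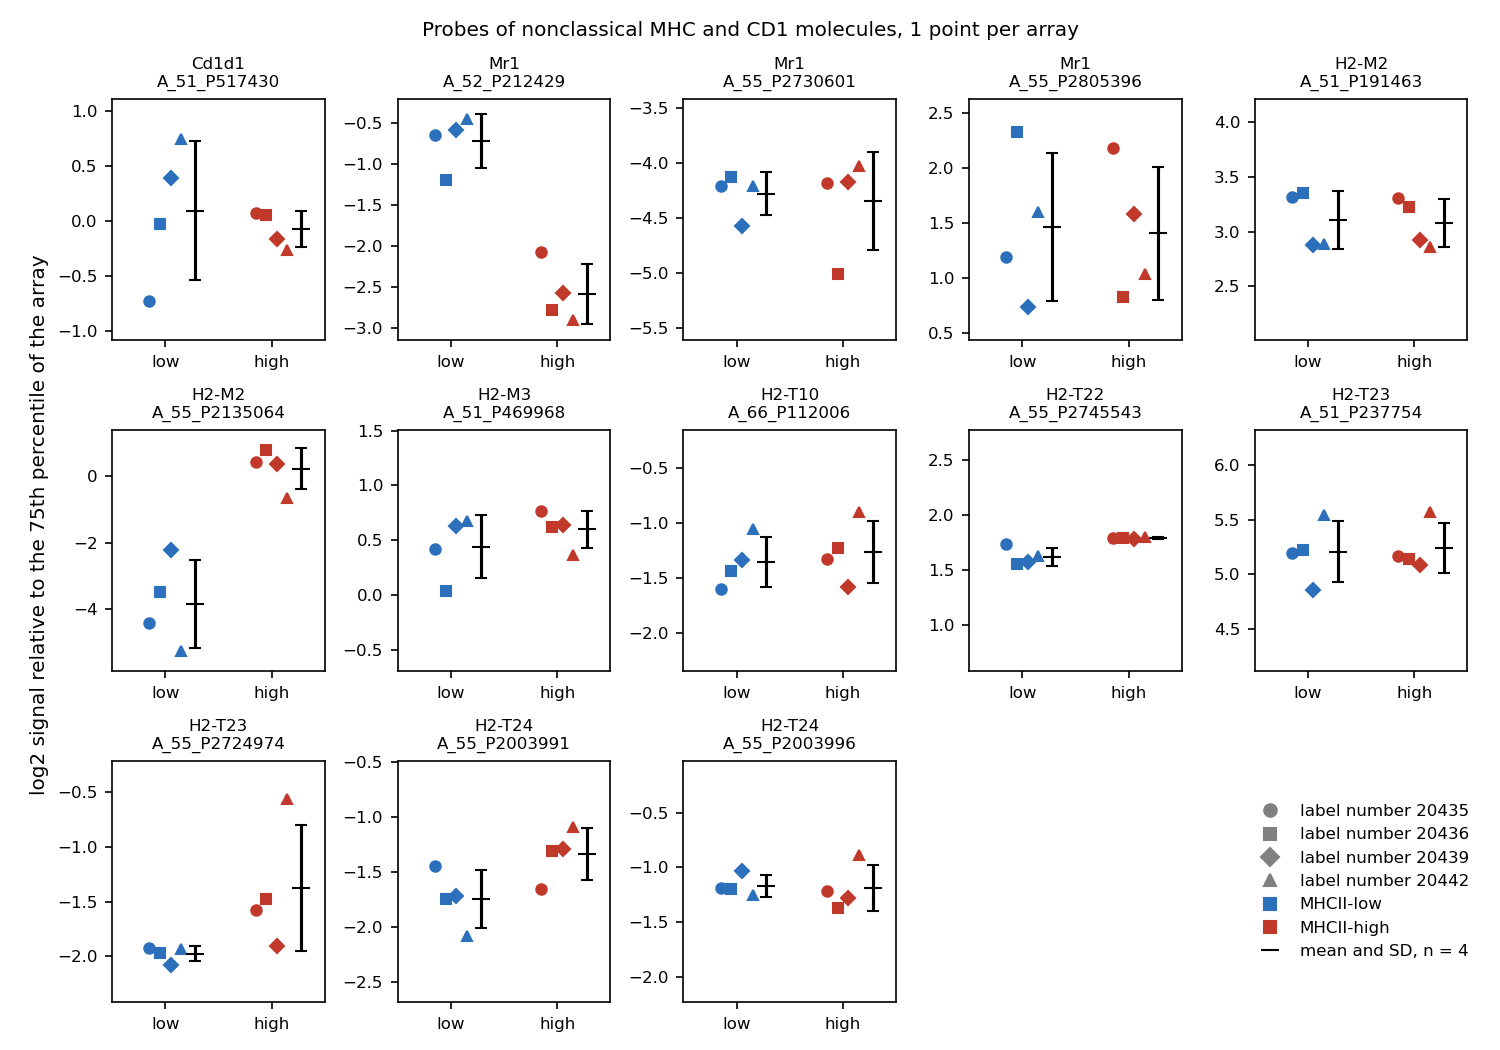
Log2 signal relative to the 75th percentile of the array (y axis) for each of the 13 probes, with 1 point per array in MHCII-low and MHCII-high cells. The groups stand well apart for H2-M2 A_55_P2135064, where MHCII-high cells are higher, and for Mr1 A_52_P212429, where they are lower, and lie close together or overlap for the rest.

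H2-M2 encodes a class I heavy chain of the M region, and what it presents is not well known. Its probe A_55_P2135064 measured 0.42, 0.80, 0.37 and -0.66 in the MHCII-high samples 20435, 20436, 20439 and 20442. The same probe measured -4.44, -3.49, -2.22 and -5.29 in the MHCII-low samples of the same numbers. All 4 MHCII-high samples stood above all 4 MHCII-low samples, with a gap of 1.56 between the nearest, and MHCII-high 20442 and MHCII-low 20442 were the lowest of their groups. The means were 0.23 ± 0.62 and -3.86 ± 1.32 (SD, n = 4 each). The change was 4.09 ± 0.63 (SE), 17.0-fold higher in MHCII-high cells with a 95% interval of 6.32 to 45.9 (limma, adjusted p = 0.0113). The MHCII-low level was dim, well above background in 3 of 4 samples, so the size of the fold is less certain than its direction. With normexp background correction the change was 2.48 (adjusted p = 0.000768).

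The other H2-M2 probe, A_51_P191463, whose main identifier is a predicted transcript, was bright in both groups. It measured 3.31, 3.22, 2.92 and 2.86 in MHCII-high samples and 3.32, 3.35, 2.88 and 2.89 in MHCII-low samples. The groups overlapped throughout, and samples with the same number lay close to each other. The change was -0.03 (95% interval -0.46 to 0.40, limma adjusted p = 0.950). The changes of the 2 probes of H2-M2 differed by 4.12 (exact permutation test, two-sided, p = 0.0286, the smallest that 4 against 4 samples allow).

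MR1 is highly conserved among mammals, and most of it waits inside the cell until a metabolite binds. Mr1 probe A_52_P212429 measured -2.07, -2.78, -2.58 and -2.91 in the MHCII-high samples 20435, 20436, 20439 and 20442. It measured -0.65, -1.20, -0.59 and -0.45 in the MHCII-low samples. Every MHCII-high sample was below every MHCII-low sample, with a gap of 0.87 between the nearest. The means were -2.59 ± 0.37 and -0.73 ± 0.33 (SD, n = 4 each). The level was 3.63-fold lower in MHCII-high cells, with a 95% interval of 2.49 to 5.31, a change of -1.86 ± 0.24 (SE, limma adjusted p = 0.00606).

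The other Mr1 probes showed no such separation. Probe A_55_P2805396 measured 2.18, 0.82, 1.58 and 1.04 in MHCII-high samples and 1.19, 2.33, 0.73 and 1.60 in MHCII-low samples, a wide spread within both groups. Its change was -0.06 (95% interval -0.98 to 0.86, limma adjusted p = 0.955), an interval that does not reach the -1.86 of the first probe. Probe A_55_P2730601 has a main identifier that differs from the one shared by the other Mr1 probes. It was dim, at -4.18, -5.01, -4.18 and -4.03 in MHCII-high samples and -4.21, -4.13, -4.57 and -4.21 in MHCII-low samples. The groups overlapped, and MHCII-high 20436 lay below the rest. Its change was -0.07 (95% interval -0.61 to 0.48, limma adjusted p = 0.907). The change of A_52_P212429 differed from that of A_55_P2730601 by -1.79 and from that of A_55_P2805396 by -1.80 (exact permutation test, two-sided, p = 0.0286 each, the smallest possible). The 2 other probes differed in change by -0.01 (exact permutation p = 0.971). In all, 6 pairs of probes of the same gene were compared, without adjustment for their number.

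**Figure D2:**
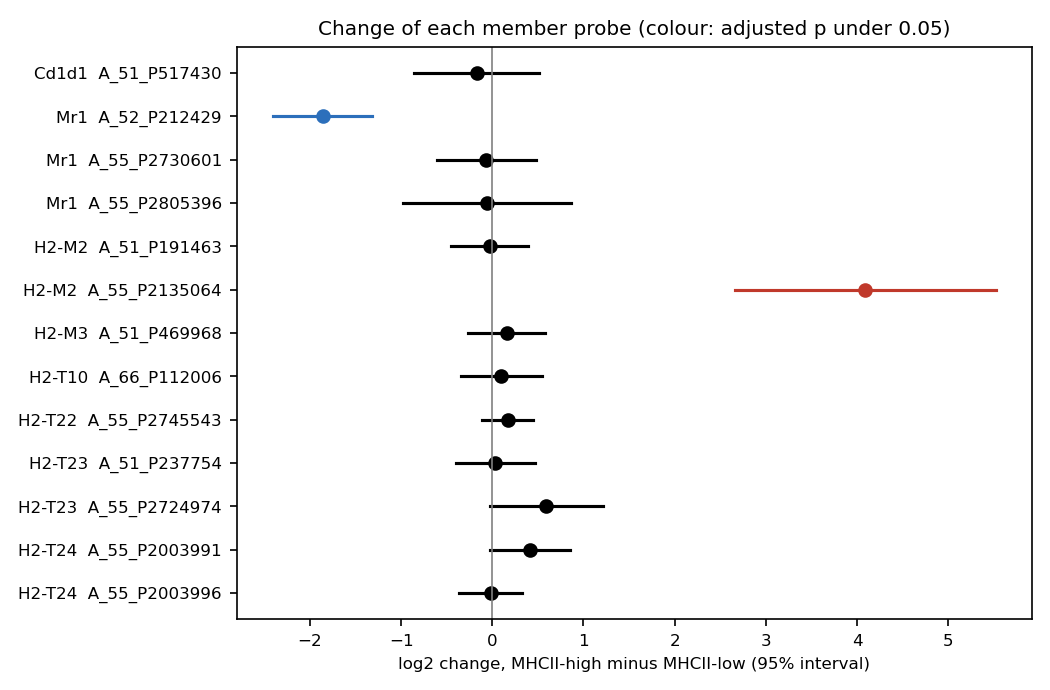
Log2 change, MHCII-high minus MHCII-low (x axis), of each of the 13 probes with its 95% interval, coloured where the adjusted p was under 0.05. H2-M2 A_55_P2135064 at 4.09 and Mr1 A_52_P212429 at -1.86 stand away from 0, and the other 11 lie between -0.17 and 0.59.

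The 8 arrays lay on 1 slide in 2 rows, with 1 MHCII-high and 3 MHCII-low arrays in row 1 and 3 MHCII-high and 1 MHCII-low arrays in row 2, so row and group are partly mixed. With the row as a block, the change of H2-M2 A_55_P2135064 was 4.76 (limma adjusted p = 0.0167), with 4.18 within row 1 and 5.33 within row 2. For Mr1 A_52_P212429 the blocked change was -2.02 (limma adjusted p = 0.0209), with -1.97 within row 1 and -2.07 within row 2. Leaving out each sample in turn gave 3.61 to 4.64 for the H2-M2 probe and -2.03 to -1.75 for the Mr1 probe, all past the threshold.

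**Figure D3:**
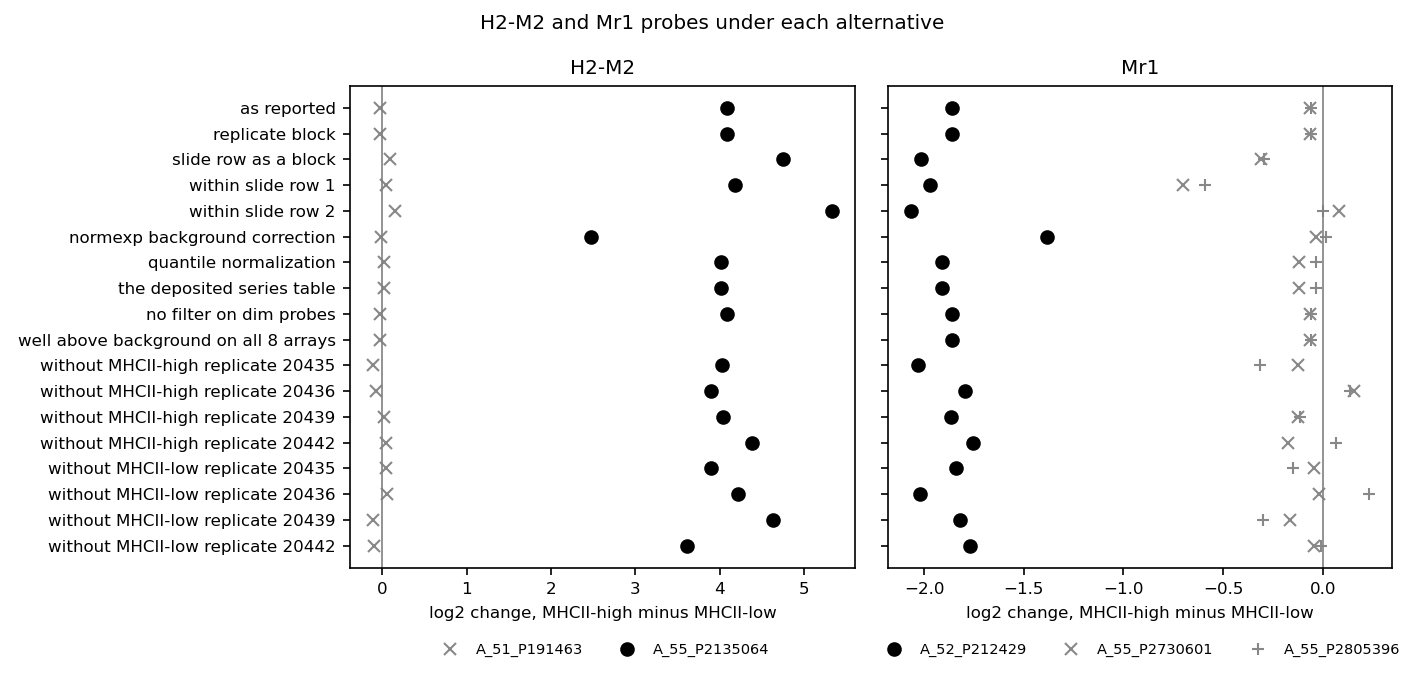
Log2 change, MHCII-high minus MHCII-low (x axis), of each probe of H2-M2 (left) and Mr1 (right) as reported and under each alternative processing (y axis). H2-M2 A_55_P2135064 stays between 2.48 and 5.33 and Mr1 A_52_P212429 between -2.07 and -1.38, while the other probes of both genes stay nearer to 0 in the same settings.

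CD1d, encoded by Cd1d1, is the lipid-presenting member. Its probe A_51_P517430 (mm9, chr3:86799791-86799850, minus strand) measured 0.08, 0.055, -0.16 and -0.26 in MHCII-high samples. In MHCII-low samples it measured -0.72, -0.03, 0.39 and 0.75. The MHCII-high values lay inside the range of the MHCII-low values, whose SD was 0.63 against 0.17. The change was -0.17 (95% interval -0.86 to 0.52, limma adjusted p = 0.797). The closely related gene Cd1d2, whose probe also lists an identifier of Cd1d1, had a difference of 0.01 between the group means (limma adjusted p = 0.983), and these data do not separate the pair with certainty.

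H2-M3 presents peptides that begin with formyl methionine, a mark of bacteria and mitochondria. Its probe A_51_P469968 (chr17:37411350-37411409, plus strand) measured 0.77, 0.62, 0.64 and 0.37 in MHCII-high samples and 0.42, 0.04, 0.63 and 0.68 in MHCII-low samples. The groups overlapped, and the change was 0.16 (95% interval -0.26 to 0.58, limma adjusted p = 0.683).

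Qa-1, from H2-T23, is the ligand through which a cell shows natural killer cells that its class I pathway works. The H2-T23 probe with the long shared run, A_51_P237754, measured 5.17, 5.14, 5.09 and 5.57 in MHCII-high samples and 5.20, 5.23, 4.86 and 5.54 in MHCII-low samples. The groups overlapped, and sample 20442 was the highest of each. The change was 0.04 (95% interval -0.40 to 0.47, limma adjusted p = 0.942). The classical probes that share its run did not pass the test either, with a change of -0.02 (95% interval -0.38 to 0.35) for H2-L and -0.09 (95% interval -0.52 to 0.35) for H2-K1.

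The second H2-T23 probe is A_55_P2724974 (chr17:36168022-36168081, minus strand). The only RefSeq gene that its identifiers matched was C920025E04Rik, which RefSeq names H2-T-ps. The probe is named for H2-T23 in the array's files, and which of these genes it reads was not tested. It measured -1.57, -1.48, -1.91 and -0.56 in MHCII-high samples and -1.92, -1.97, -2.07 and -1.93 in MHCII-low samples. All MHCII-high values were above all MHCII-low values, by 0.02 at the nearest, and MHCII-high 20442 was well above the others. The change was 0.59 (95% interval -0.02 to 1.21) and did not pass (limma adjusted p = 0.264). Without MHCII-high 20442 it was 0.32. The changes of the 2 probes of H2-T23 differed by 0.56 (exact permutation p = 0.0571). A probe named for C920025E04Rik itself, which also lists an identifier of H2-T23, had a difference of -0.04 between the means (limma adjusted p = 0.945). These probes therefore do not separate H2-T23 from C920025E04Rik with certainty.

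H2-T22 and H2-T10 can be recognised by gamma delta T cells without a bound peptide. The H2-T22 probe A_55_P2745543 (chr17:36175670-36175937, minus strand, 268 bases of genome) also lists an identifier of H2-T9. It measured 1.79, 1.79, 1.78 and 1.80 in MHCII-high samples and 1.73, 1.55, 1.57 and 1.62 in MHCII-low samples. The groups did not overlap, with a gap of 0.05, and the MHCII-high samples were almost level. The change was 0.17 (95% interval -0.11 to 0.45) and did not pass (limma adjusted p = 0.485). A probe named for H2-T9 had a difference of -0.19 (limma adjusted p = 0.594). The H2-T10 probe A_66_P112006 (chr17:36255918-36255977, minus strand), for a gene that RefSeq lists as a transcribed pseudogene, measured -1.33, -1.23, -1.59 and -0.90 in MHCII-high samples. It measured -1.60, -1.44, -1.34 and -1.05 in MHCII-low samples. These overlapped, with a change of 0.10 (95% interval -0.35 to 0.54, limma adjusted p = 0.823).

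H2-T24 is a class I gene of the T region whose function is little known. Its probe A_55_P2003991 (chr17:36143605-36143664, minus strand) measured -1.65, -1.30, -1.28 and -1.09 in MHCII-high samples and -1.44, -1.74, -1.71 and -2.08 in MHCII-low samples. The groups overlapped through MHCII-high 20435 and MHCII-low 20435, and the change of 0.41 (95% interval -0.02 to 0.85) did not pass (limma adjusted p = 0.267). Its second probe, A_55_P2003996 (chr17:36142640-36142699, minus strand), measured -1.21, -1.37, -1.28 and -0.89 in MHCII-high samples and -1.19, -1.20, -1.03 and -1.25 in MHCII-low samples. These overlapped, with a change of -0.02 (95% interval -0.37 to 0.33, limma adjusted p = 0.962). The 2 probes of H2-T24 differed in change by 0.43 (exact permutation p = 0.0571).

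The upper ends of the intervals of the 11 uncalled probes reached 1.21 and the lower ends -0.98. Their adjusted p ran from 0.264 to 0.962, which does not show that the levels were the same.

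Promoter windows from 250 bases before to 50 bases after the start were available from RefSeq (GRCm38.p6) for 5 of the 8 genes, Mr1, H2-M2, H2-M3, H2-T22 and H2-T23. Class I promoters are known to carry an interferon-stimulated response element, and this motif, searched by its consensus on both strands, was found in the windows of H2-T22 and H2-T23, beside 3.44% of all 32851 windows. The matches, in capitals with 10 bases on each side, stand 191 and 124 bases before the start, on the strand opposite to the gene, and are shown because class I promoters are known for this element.
H2-T22 promoter: attggcttagTTTCACTTTCgaatccccaa
H2-T23 promoter: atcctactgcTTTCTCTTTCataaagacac
These come from windows at chr17:36042693-36042992 and chr17:36032652-36032951 on GRCm38.p6, minus strand. The gamma-activated site TTCNNNGAA, at 8.30% of windows, was found in H2-M3, 209 bases before the start. The Y box CCAAT, at 37.4% of windows, was found in H2-M2, H2-M3, H2-T22 and H2-T23. A match describes the letters and does not show binding.

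The genes whose 8 values, centred on their mean, were nearest to those of the called probes were named from 19554 genes by root mean square difference. For H2-M2 A_55_P2135064 these were Adra2a, an adrenergic receptor, at 0.49, Klrb1-ps1, a pseudogene of the natural killer receptor family, at 0.51, and Klrb1a, a receptor of that family, at 0.58. For Mr1 A_52_P212429 these were Adgre1, which encodes a surface marker of mature macrophages, at 0.25, Arhgef12 at 0.26, and Serpinb6a, a protease inhibitor, at 0.26. The likeness mostly describes the shared difference between the groups.

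Other class I heavy chains, the classical ones among them, also held no change that passed the test. Of 20 measured genes, 0 passed the limma test in either direction, 4 had an unadjusted p under 0.05, and the median change was -0.09, beside 0.0021 over all genes at their brightest probe. The largest changes were in H2-M1 (-0.62, adjusted p = 0.196) and H2-Q5 (0.62, adjusted p = 0.112). Over all genes at their brightest probe, 2.66% were called higher and 2.24% lower, and the lists that follow are read at the brightest probe.

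Among 12 measured class I-like molecules, 1 was higher and 3 were lower, with a median of -0.20. Fcgrt, the neonatal Fc receptor that rescues IgG and albumin, was lower, at -1.16 (limma adjusted p = 0.0453). Raet1e and Raet1b, stress ligands of the activating receptor NKG2D, were lower, at -1.10 (adjusted p = 0.0190) and -1.07 (adjusted p = 0.0177), and Raet1a was higher by 0.77 (adjusted p = 0.0354). The Raet1 genes are near-identical copies, and another probe of Raet1a read -2.39, so their directions are uncertain.

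In the machinery that loads class I molecules, 1 of 13 genes was higher, Psmb9, a subunit of the immunoproteasome that cuts peptides for class I, by 0.81 (limma adjusted p = 0.0249). None was lower, and the median was 0.14. The light chain gene B2m, which the family shares, had a difference of -0.09 between the means (adjusted p = 0.796), and the peptide transporter gene Tap1 one of 0.73 (adjusted p = 0.0636).

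Of 21 genes for loading lipids on CD1d and moving it through lysosomes, 3 were lower in MHCII-high cells and 0 higher, with a median of -0.26. Glb1 and Galc encode lysosomal enzymes that remove galactose from glycolipids. Glb1 was lower, at -1.26 (limma adjusted p = 0.0139), and 1 of its 4 other probes read 0.27. Galc was not well above background in any MHCII-high sample, so it passed the filter on dim probes through MHCII-low samples alone. It was lower in MHCII-high cells (limma adjusted p = 0.0151), a result that rests on dim values there. With the MHCII-high values set no lower than the lowest signal well above background, it was 4.84-fold lower. With normexp background correction its change was only -0.78, so the size of the fold is uncertain. Ap3s1, of the adaptor that carries proteins to lysosomes, was lower, at -0.98 (adjusted p = 0.0478).

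Of 18 transcription regulators of class I and CD1d, 2 were higher and 1 lower, with a median of 0.07. Nfkb1, an NF-kB subunit, was higher by 0.65 (limma adjusted p = 0.0298), Elf1, an ETS factor, by 0.77 (adjusted p = 0.0419, with another probe at -0.26), and the nuclear receptor Rxra was lower, at -0.80 (adjusted p = 0.0329). Nlrc5, the main activator of class I genes, had a difference of 0.06 between the means (adjusted p = 0.925).

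CD94/NKG2 receptors recognise Qa-1, and Klrk1, kept in the same list, encodes NKG2D, which binds the Raet1 ligands instead. Of 3 measured genes 2 were higher in MHCII-high cells. Klrd1, which encodes CD94, changed by 4.84 (limma adjusted p = 0.0239) and was dim in MHCII-low cells, and Klrk1 by 3.07 (adjusted p = 0.00611). Klrc1, which encodes NKG2A, had a difference of -1.31 (adjusted p = 0.367).

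Many calls in these lists did not hold in fits that left out 1 sample. Of the 13 genes called in them, 4 were called in every fit that left out 1 sample, Raet1b, Glb1, Galc and Klrk1. Galc passed the filter on dim probes through MHCII-low samples alone, so its calls in these fits add no support for a difference. Of the 13 genes, only Klrk1 remained once slide row was blocked (limma adjusted p = 0.0336). Raet1e was lost without MHCII-high 20439 or MHCII-low 20436, Klrd1 without 5 of the samples, and the other 7 each without 6 or 7 of the 8 samples, with adjusted p up to 0.130; every one of the 8 samples was among those. The lost calls of Klrd1 were those without MHCII-high 20436, 20439 or 20442 and without MHCII-low 20436 or 20442.

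**Figure D4:**
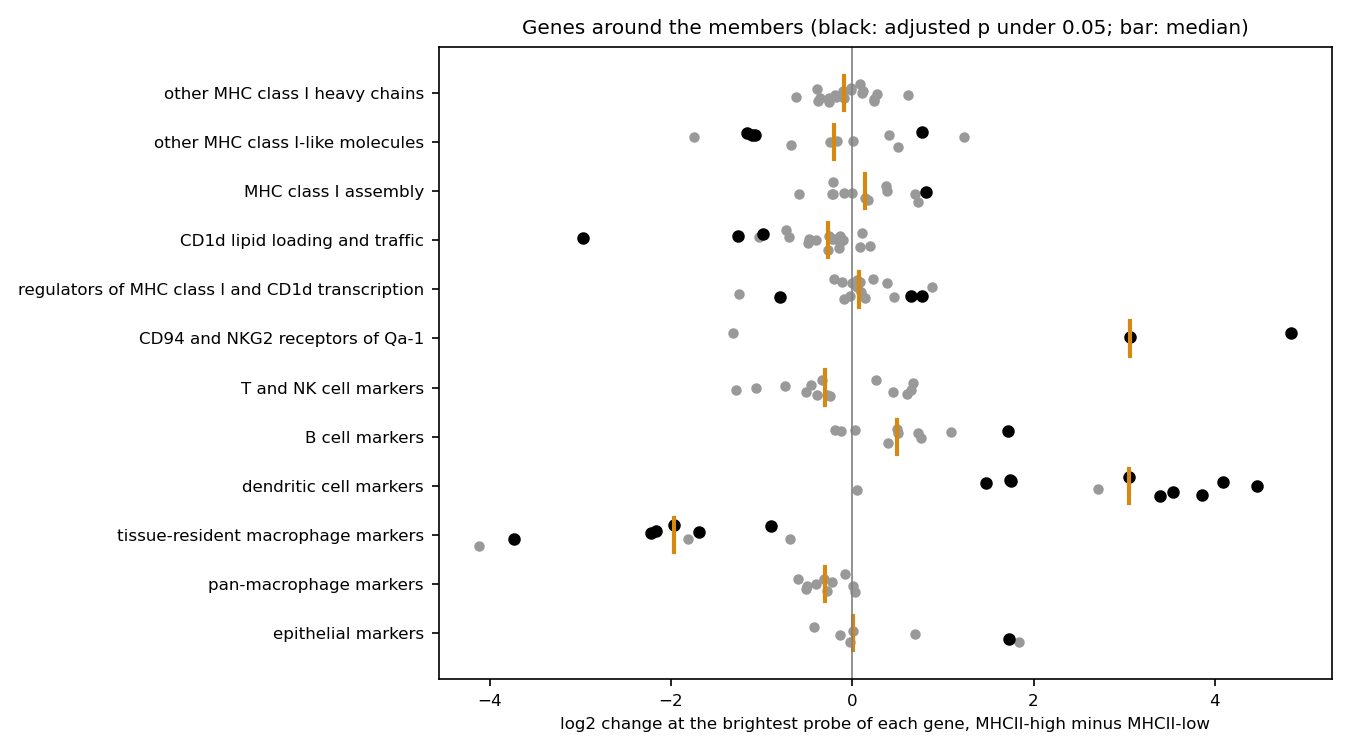
Log2 change, MHCII-high minus MHCII-low (x axis), of each measured gene at its brightest probe, by gene list (y axis), with black points for an adjusted p under 0.05 and a bar at the list median. The medians of the heavy chain, class I-like, assembly, lipid loading and regulator lists lie between -0.26 and 0.14, while that of dendritic cell markers is 3.06 and that of tissue-resident macrophage markers -1.96.

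Among the cell type marker lists, those of dendritic cells and tissue-resident macrophages differed most between the groups. All 10 pan-macrophage markers were well above background on all 8 arrays, 0 of 10 passed the limma test, 3 had an unadjusted p under 0.05, and their median was -0.30, with Cd68 at -0.59 (adjusted p = 0.0947) and C1qc at -0.52 (adjusted p = 0.112). Dendritic cell markers were higher for 9 of 11, led by Flt3 (4.47), Itgae (4.09), Clec9a (3.86), Ccr7 (3.53) and Dpp4 (3.40). Their list mean was -0.12 to 1.35 in MHCII-high and -2.32 to -1.66 in MHCII-low samples. The other tested probe of Flt3 read 0.25 and that of Dpp4 0.00, so these changes depend on the probe. Those of Itgae, Clec9a and Ccr7 also read higher in MHCII-high cells. Tissue-resident macrophage markers were lower for 6 of 9, with a list mean of -0.24 to 1.61 in MHCII-high and 2.75 to 3.09 in MHCII-low samples, led by Cd5l (-3.73), Vsig4 (-2.22), Timd4 (-2.17), Folr2 (-1.96) and Adgre1 (-1.69). With the slide row blocked, 6 of the 9 dendritic calls were kept, without Zbtb46, Clec9a and Fscn1, and 3 of the 6 resident macrophage calls, Adgre1, Timd4 and Cd5l. Without MHCII-low 20435, 3 of the 6 resident macrophage calls were kept. The part of these markers in the changes of H2-M2 and Mr1 was not tested, and in sorted bulk samples fewer cells of a type and less RNA per cell cannot be told apart.

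T and natural killer cell markers, which bear on the CD94 and NKG2 genes, passed for 0 of 14 by limma, with 4 at an unadjusted p under 0.05. Their list mean was -0.82 to -0.29 in MHCII-high and -0.70 to -0.19 in MHCII-low samples. The largest changes were in Cd3g (-1.28, limma adjusted p = 0.244), well above background in 2 of 4 MHCII-high samples, and Cd247 (-1.06, adjusted p = 0.198). Other Cd247 probes read 0.16 and -0.35. At the brightest probe, 5 of the 14 genes had a positive change. These were Cd8a (0.67), Tbx21 (0.65, limma adjusted p = 0.0757), Prf1 (0.61), Klrb1c (0.45) and Ncr1 (0.26). The other tested probe read 1.38 for Klrb1c, 0.96 for Cd8a, 0.43 for Lck, 0.30 for Eomes and 0.29 for Cd3e. That of Zbtb16 read 0.07 and that of Cd3d -0.30, so the sign depends on the probe for several of these genes. Epithelial markers were higher for 1 of 7, Cdh1 (1.73, adjusted p = 0.0333; lost in 7 of the 8 fits that left out a sample and with the slide row blocked, adjusted p = 0.0592), with list means of -1.27 to 0.62 in MHCII-high and -1.17 to -0.40 in MHCII-low samples. The part of epithelial cells in these results was not tested.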

How the data were processed

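Total RNA was amplified, labelled with Cy5 and hybridised to Agilent mouse arrays, per the labels. The deposited scanner output gives a linear intensity per spot, made by the authors with Agilent Feature Extraction 11.5.1.1, per the submitters' processing notes. The processed signal was used. The deposited series table holds log2 values, whose making is not given in the sources used here, and it correlated at 0.999998 or more with a quantile normalization computed here; it served as an alternative.

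Control spots and outlier spots (67 to 160 per array) were left out, and spots of a probe were averaged. Log2 processed signals were set relative to the 75th percentile of the array. The filter kept 41181 probes that were well above background on 4 or more of 8 arrays; 38756 to 42087 of 56605 were so on each array, and precision is limited by the number of arrays. The group comparison used limma 3.58.1 (lmFit, eBayes, R 4.3.3), two-sided, with Benjamini-Hochberg adjustment over all probes and a threshold of 0.05. Probe-to-probe differences were tested with exact permutation over 70 assignments. Names came from RefSeq, and coordinates from the files. The fit was tested on simulated data.

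A gene in a list is read at its brightest probe. The fold given for Galc sets the MHCII-low mean against a mean over the MHCII-high arrays. In that mean each array entered with its lowest signal well above background or the probe's own, whichever was higher. Named were every member probe, in each list the genes past the threshold (up to 5) or the 2 largest changes, plus the 3 nearest profiles of each called probe; B2m, Tap1, Klrc1, Nlrc5, Cd1d2 and the probes that share bases or identifiers with members were added after their values were seen. A result on another marker list is not reported here. The members and lists were chosen with earlier results of these data known. Alternatives covered blocks for label number and slide row, rows alone, normexp (offset 50), quantile normalization, the series table, other filters, the brightest probe per gene, and each sample left out.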

Additional observations from a re-analysis of the deposited data

Results flagged for a closer look

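In 26 groups of 4 samples (13 probes in each group), 2 held a sample whose distance from its nearest neighbour, as a share of the group's range, exceeded Dixon's critical value, and chance gives about 1 in 20. The H2-T23 probe A_51_P237754 measured 5.57 in MHCII-high 20442, above 5.09 to 5.17 in the other MHCII-high samples. The Mr1 probe A_55_P2730601 measured -5.01 in MHCII-high 20436, below -4.18 to -4.03 in the others. Neither probe passed the test between the groups.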

How the results depend on the processing

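H2-M2 A_55_P2135064 was called in 14 of 14 alternatives with a test that hold it (adjusted p 0.000768 to 0.0402) and Mr1 A_52_P212429 in 15 of 15 (adjusted p 0.00115 to 0.0262), and no uncalled member probe was called in any. The count of members called higher was 0 where only probes well above background on all 8 arrays were kept, and the counts higher and lower were 0 and 0 where each gene was its brightest probe, since these tables do not hold the called probes. Of 195 values of uncalled probes under alternatives, 28, of 8 probes, had the other sign. Over all probes, 2139 were called, 1139 higher and 1000 lower.

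With the label number as a replicate block, 1232 probes were called (704 higher, 528 lower), the class I-like list had 0 higher and 1 lower, assembly 0 higher, lipid loading 1 lower, and regulators 0 higher and 0 lower. The changes of the called H2-M2 and Mr1 probes were 4.09 (adjusted p = 0.0184) and -1.86 (adjusted p = 0.0262). Deviations of same-numbered samples correlated at 0.0813 to 0.199 and those of others at -0.15 to 0.079, and 8 of 8 samples correlated best with their own number, a hint from the data; 1 of 4 pairs was not over 0.1, so the numbers were not taken to pair the samples.

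With the slide row as a block, 711 probes were called (459 higher, 252 lower), the class I-like list had 0 and 0, assembly 0 higher, lipid loading 0 lower, regulators 0 and 0, and the CD94 and NKG2 list 1 higher. Within row 2 the medians were 0.020 for class I-like, 0.035 for assembly and -0.056 for regulators. With normexp the class I-like list had 2 higher, assembly 3 higher and 1 lower, lipid loading 5 lower, and the CD94 and NKG2 median was 1.97. Assembly had 2 higher with quantile normalization, with the series table and with probes well above background on all 8 arrays, where class I-like had 2 and CD94 and NKG2 had 1 higher. With no filter, regulators had 1 higher. With the brightest probe per gene, 1382 were called (751 higher, 631 lower). The causes were not tested.

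Leaving out 1 sample gave 887 (without MHCII-high 20439) to 1819 calls, 458 to 1031 higher and 429 to 820 lower. It gave 0 to 1 higher and 1 to 3 lower for class I-like, 0 to 1 higher for assembly, 0 to 1 higher and 0 to 1 lower for regulators, and 1 to 2 higher for CD94 and NKG2. Dim signals limit the H2-M2, Galc, Klrd1 and Klrc1 values.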
